A study of Homo sapiens with 12 samples.

Results

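The collagens are the triple-helical proteins of the extracellular matrix, and 34 genes of their synthesis were followed here across 12 RNA-seq libraries: 16 collagen chain genes and 18 genes for the enzymes, helper proteins and chaperone that modify, cut and cross-link the chains. They were chosen by name, with earlier results of these data known. The rule took every row of a table of 11178 genes whose symbol reads COL, a number, A, a number. A fixed set of 20 enzyme and chaperone symbols was added. Of those 20, 18 had a row, and LOXL4 and P4HA3 are not analysed here. A gene was tested when its value was at least 10 on the linear scale in at least 4 of the 12 libraries. All 34 collagen genes met this, as did 11128 genes in all.

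Each collagen chain is hydroxylated on prolines and lysines in the endoplasmic reticulum, winds with its partner chains into a triple helix, and is checked by the chaperone HSP47 before export. Outside the cell, BMP1 and its enhancer proteins cut off the C-terminal propeptide of fibrillar procollagens, and enzymes of the lysyl oxidase family then cross-link the fibrils. Glioma cells are known to make several collagens themselves, among them type IV of basement membranes and type VI, which forms beaded filaments.

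The cells were U251-APP, a glioblastoma line with astrocyte features that stably expresses the amyloid precursor protein carrying the changes K670N and M671L. CTCF, the DNA-binding protein that anchors chromatin loops, binds both of the sites that were targeted. The CTCF-A KO group (4 libraries) lacks the binding site called CTCF-A, the CTCF-B KO group (4 libraries) lacks the site called CTCF-B, and the wild type group (4 libraries) keeps both sites. All 3 groups carry the APP transgene, and the treatment label of every library, wild type included, is CRISPR/Cas9 editing, although the descriptions of CTCF-B KO replicates 2 to 4 give other Cas numbers. Knockouts were made with a pair of guide RNAs flanking the site, after which clones were grown from single cells. The sources used here do not give whether a group's 4 libraries came from different clones or cultures. Each p-value therefore measures the spread among the libraries alone, and that spread may be technical. Differences between clones cannot be told apart from loss of a site with this design. The targets are binding sites and not genes, so the table of genes holds no direct check of either deletion.

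Values are the authors' normalized expression on a log2 scale, so a difference of 1 is a doubling. Sequencing depth is unknown from these files and no counting interval can be given. Replicates of CTCF-A KO differed from each other by a median absolute value of 0.0804 to 0.29 over all genes, against 0.0555 to 0.081 in CTCF-B KO and 0.0524 to 0.0822 in wild type. CTCF-A KO also differed from the others in a trend with GC content: relative to the wild type mean, the GC-richest decile of genes exceeded the GC-poorest decile by 1.01, 0.474, 0.694 and 0.0636 in CTCF-A KO replicates 1 to 4, against -0.122 to 0.0325 in CTCF-B KO and -0.152 to 0.0911 in wild type. The collagen genes are rich in GC, with a median of 57.8% over their longest transcripts against 49.1% over all genes tested, so CTCF-A KO results were also computed with that trend removed and with CTCF-A KO represented by its replicate 4 alone, which shows the least of it. Of 12 astrocyte and glioma markers, 8 were measured, and their summed linear level was 88300 to 102800 in CTCF-A KO, 77400 to 81000 in CTCF-B KO and 135200 to 157500 in wild type. In CTCF-A KO 5 of the 8 were called lower and 0 higher, where 31.1% of all genes tested were called lower and 31.8% higher. In CTCF-B KO 7 were lower and 0 higher, where 20.6% of all genes were lower and 18.9% higher. Among the 8 markers VIM was the highest, at means of 15.94, 15.52 and 15.92 in CTCF-A KO, CTCF-B KO and wild type. The lowest was FABP7 in CTCF-A KO, at 9.39, and SLC1A3 in CTCF-B KO and wild type, at 9.11 and 10.42. GFAP, the defining astrocyte filament gene, was at 12.57 in CTCF-A KO, 12.83 in CTCF-B KO and 15.68 in wild type. Of 10 fibroblast and mural markers only THY1 (12.02, 11.23 and 12.28) and TAGLN (5.94, 5.62 and 6.07) were measured, with a summed level of 3588 to 4735 in CTCF-A KO, 2367 to 2596 in CTCF-B KO and 4598 to 5290 in wild type. KDR alone represented 6 endothelial markers (500.8 to 631.7, 673.5 to 732.4 and 1198 to 1276 on the linear scale), KRT18 alone 6 epithelial markers (369.0 to 450.8, 359.1 to 387.9 and 463.2 to 505.0), and 0 of 6 microglia and macrophage markers were measured. The part of any of these shifts in the collagen results was not tested, and in bulk samples fewer cells of a type cannot be told apart from less RNA per cell.

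Promoter sequences are shown first, for a few members with an entry in the RefSeq table (GRCh38.p14), which matched 26 of the 34 genes. Other members that had an entry and passed 1.5-fold against wild type, such as COL18A1, COL5A1 and P4HA2, are not printed. LOX and P4HA1, which rose in CTCF-B KO, and PLOD2, a lysyl hydroxylase gene whose difference of 0.04 there was not called, are known targets of the hypoxia-inducible factors, so the 250 bases before their starts are printed 5′ to 3′ on the gene's strand, with the core of the hypoxia response element, ACGTG on either strand (CACGT where it lies on the other strand), in capitals. The LOX window is chr5:122078260-122078509, minus strand, the P4HA1 window chr10:73096867-73097116, minus strand, and the PLOD2 window chr3:146161185-146161434, minus strand.
LOX: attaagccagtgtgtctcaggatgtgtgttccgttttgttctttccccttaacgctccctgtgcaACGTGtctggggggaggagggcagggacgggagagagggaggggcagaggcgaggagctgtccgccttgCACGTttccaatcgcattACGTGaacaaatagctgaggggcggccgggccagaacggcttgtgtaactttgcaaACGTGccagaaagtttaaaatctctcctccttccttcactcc
P4HA1: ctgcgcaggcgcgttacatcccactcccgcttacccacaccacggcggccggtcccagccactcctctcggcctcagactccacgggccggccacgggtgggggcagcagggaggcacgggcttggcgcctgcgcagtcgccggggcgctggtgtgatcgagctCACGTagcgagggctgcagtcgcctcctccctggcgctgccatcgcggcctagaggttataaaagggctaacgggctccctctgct
PLOD2: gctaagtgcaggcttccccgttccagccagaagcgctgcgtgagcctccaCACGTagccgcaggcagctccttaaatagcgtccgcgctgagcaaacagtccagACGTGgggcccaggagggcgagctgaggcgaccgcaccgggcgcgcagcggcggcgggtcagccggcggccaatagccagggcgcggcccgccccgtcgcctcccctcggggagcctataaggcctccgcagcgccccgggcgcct
The LOX window held 4 matches, beginning 185, 116, 98 and 42 bases before the start. P4HA1 had 1 match, 86 bases before its start, and PLOD2 had 2, at 200 and 146 bases. These are RefSeq starts. LOX had 3 listed starts, and not all of their windows are printed. The PLOD2 start lay 2469 bases from its GENCODE start. Over windows from 250 bases before to 50 after a start, 10 of 34 member windows, from 7 of the 26 genes, held the motif, against 18.5% of all 35116 windows and 23.0% of those of the genes tested. The genes were COL12A1, COL5A1, LOX, P3H2, P4HA1, PLOD2 and SERPINH1. In CTCF-B KO, LOX and P4HA1 were called higher, COL12A1, COL5A1 and SERPINH1 lower, and P3H2 and PLOD2 were not called. The window of P4HA2, which rose by 0.93 in CTCF-B KO, held 0 matches. A match is a description of letters and not evidence of binding.

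A second sequence shows a shared layout. COL4A1 and COL4A2, which encode the partner chains of the common type IV collagen, lie head to head on chromosome 13, and the 126 bases between their RefSeq starts (chr13:110307158-110307283, given on the plus strand, the COL4A2 strand) belong to both upstream regions. The CCAAT box in it is in capitals.
COL4A1/COL4A2: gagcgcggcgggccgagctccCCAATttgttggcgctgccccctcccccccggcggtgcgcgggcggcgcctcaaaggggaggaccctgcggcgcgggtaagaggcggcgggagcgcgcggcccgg
This stretch held 1 CCAAT box and 1 GC box (GGGCGG), counted on both strands. Of the 34 member windows, 10 held CCAAT, against 32.0% of all windows and 33.2% of those of the genes tested. GGGCGG was found in 22 of the 34, against 42.6% of all windows and 65.5% of those of the genes tested.

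In wild type cells the collagen genes covered a wide range of levels, given here as log2 of the normalized value per kb of the gene's longest transcript. COL1A2, the α2 chain of type I collagen, stood highest at 12.52 ± 0.05 (SD, n = 4), followed by the cross-linking enzyme gene LOXL2 at 11.34 ± 0.07, COL6A1 at 11.06 ± 0.12 and COL6A2 at 10.75 ± 0.11. The lowest were PCOLCE2 at 4.82 ± 0.18, COL17A1 at 5.19 ± 0.11 and COL4A6 at 5.20 ± 0.12. Many neighbours in this order did not differ beyond their spread, such as SERPINH1 and BMP1, both at 9.57, COL5A1 and P4HA1, both at 9.29, and COL17A1 and COL4A6. COL1A1, the other type I chain, was at 7.20 ± 0.08 per kb, far below COL1A2. In CTCF-B KO, COL14A1 took rank 28 of 34, against rank 19 in wild type, and LOX took rank 23, against rank 29. In CTCF-A KO, COL6A1 and COL6A2 ranked 2 and 3, against 3 and 4 in wild type.

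The CTCF-B KO group had lower levels of every collagen chain measured and higher levels of a part of the modifying enzymes. In CTCF-B KO against wild type, 19 of the 34 genes were lower and 8 higher at an adjusted p under 0.05 (limma, Benjamini-Hochberg over all 11128 genes), against a background of 39.4% of all genes called, 20.6% lower and 18.9% higher. All 16 chains were among the lower genes, with a median difference of -0.38, whereas 8 of the 18 enzymes and helpers were higher and 3 lower, with a median of 0.12. The median over all genes tested was 0.00. The split into chains and enzymes was made after the data were seen. Of the chains, 5 were lower by at least 0.58, or 1.5-fold, where 3.67% of all genes were, and of the enzymes 4 were higher by that much, where 1.75% of all genes were. Fewer chains stayed called under some other settings: 13 under quantile normalization (COL1A2, COL4A1 and COL12A1 lost), 14 after centring each library on its median (COL1A2 and COL6A2 lost), 15 with the GC and length trend removed (COL4A1 lost) and 15 when any 1 of the 8 libraries compared was left out (COL12A1 lost).

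The CTCF-A KO group showed a mixed picture among the chains and mostly higher values among the enzymes. In CTCF-A KO against wild type, 19 of the 34 genes were higher and 6 lower, where 62.9% of all genes were called, 31.8% higher and 31.1% lower. The chains split into 7 higher, 4 lower and 5 not called (median 0.08), and the enzymes into 12 higher, 2 lower and 4 not called (median 0.31), against a median of 0.00 over all genes. Only 4 members passed 1.5-fold: COL6A1, COL6A2 and P4HA2 were higher, with 4.89% of all genes called higher by that much, and COL1A1 was lower, with 8.37% of all genes called lower by that much. With the GC and length trend removed, 17 genes were higher and 7 lower, and 20 of the 25 calls were kept in the same direction. The median of the members was then 0.07, against -0.02 over all genes. The chains were at 5 higher and 5 lower (median -0.03) and the enzymes at 12 higher and 2 lower (median 0.13). The shares of all genes called under this setting and in replicate 4 alone are not given here. In replicate 4 alone, whose spread is then assumed to equal that of the other groups, 17 were higher and 4 lower, and 17 of the 25 calls were kept.

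**Figure D1:**
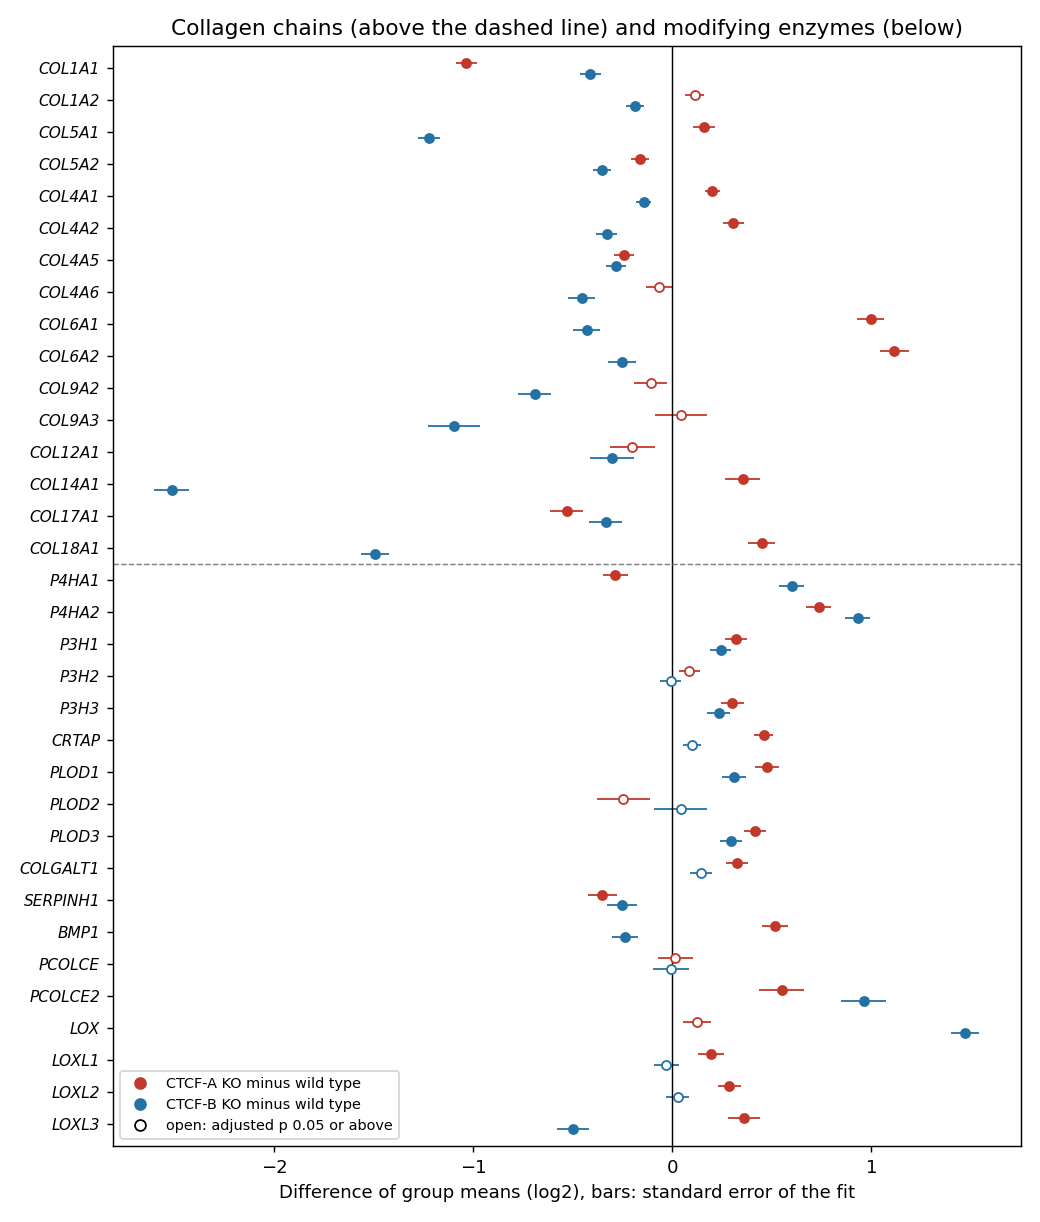
Difference of group means from wild type for the 34 genes, on the log2 scale, with the standard error of the fit as bars. Red is CTCF-A KO minus wild type and blue is CTCF-B KO minus wild type, and open circles have an adjusted p of 0.05 or above; all 16 blue points above the dashed line, the collagen chains, lie left of 0.

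Among the fibril-forming chains, COL1A2 was the most abundant and differed least from wild type. COL1A2 had 14.79, 14.71, 14.77 and 14.80 in CTCF-B KO, against 14.99, 14.97, 14.89 and 14.98 in wild type. The groups did not overlap, and the difference was -0.19 ± 0.05 (SE, adjusted p = 0.00693), although under quantile normalization it was -0.00. In CTCF-A KO the difference of COL1A2 was 0.11 (adjusted p = 0.0539), with libraries overlapping those of wild type, while without CTCF-A KO replicate 2 or 4 it was called (0.14 each, adjusted p = 0.0264 and 0.00956). Its sign turned under quantile normalization, where it was called lower (-0.14, adjusted p = 0.0075), and with the trend removed (-0.02, adjusted p = 0.503). After median centring it was called higher (0.19, adjusted p = 0.0186).

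COL1A1 (chr17:50183289-50201632, minus strand; GRCh38, as for all gene positions here), which encodes the α1 chain that pairs with α2 in type I collagen, fell in both knockouts. It had 8.97, 8.83, 9.00 and 8.89 in CTCF-A KO and 9.56, 9.53, 9.58 and 9.50 in CTCF-B KO, against 10.03, 9.88, 9.90 and 10.01 in wild type. The 3 groups were fully separate, with CTCF-A KO lowest. The fold was 0.488 in CTCF-A KO (log2 difference -1.03 ± 0.05, adjusted p = 9.14e-09) and 0.752 in CTCF-B KO (-0.41 ± 0.05, adjusted p = 4.94e-05). The CTCF-A KO difference was -1.23 with the trend removed and -1.07 in its replicate 4 alone, and the CTCF-B KO difference was -0.25 with the trend removed.

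Type V collagen, which sits inside type I fibrils and limits their width, changed unevenly in its chains. COL5A1 (chr9:134641774-134844843, plus strand) had 11.13, 11.14, 11.14 and 11.18 in CTCF-B KO, against 12.46, 12.45, 12.22 and 12.34 in wild type. All CTCF-B KO libraries lay more than 1 log2 unit below all wild type libraries, at a fold of 0.428 (-1.22 ± 0.06, adjusted p = 4.22e-09). In CTCF-A KO, COL5A1 was at 12.64, 12.45, 12.55 and 12.47, overlapping wild type. That difference of 0.16 (adjusted p = 0.025) passed the test, but it was -0.07 with the trend removed (adjusted p = 0.0761), 0.04 under quantile normalization (adjusted p = 0.459) and 0.11 without wild type replicate 3 (adjusted p = 0.0848); leaving out CTCF-A KO replicate 1 (0.12, adjusted p = 0.0674), CTCF-A KO replicate 3 (0.15, adjusted p = 0.061) or wild type replicate 4 (0.15, adjusted p = 0.0611) also ended the call. Its partner COL5A2 fell by 0.35 in CTCF-B KO (adjusted p = 6.07e-05) and by 0.16 in CTCF-A KO (adjusted p = 0.00867), where the call was lost with the trend removed (-0.05), in replicate 4 alone (-0.14) and after median centring (-0.08, adjusted p = 0.224).

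The basement membrane chains moved by smaller amounts. In CTCF-B KO the 4 type IV chains fell by 0.14 (COL4A1), 0.33 (COL4A2), 0.28 (COL4A5) and 0.46 (COL4A6), with adjusted p from 0.000163 to 0.00797 and no library overlapping wild type. COL4A1 was the weakest of them, with a difference of -0.05 once the trend was removed (adjusted p = 0.179), and the COL4A2 value was then -0.16. In CTCF-A KO, COL4A1 and COL4A2 were higher by 0.20 (adjusted p = 0.000552) and 0.31 (adjusted p = 0.000307), and COL4A5 was lower (-0.24, adjusted p = 0.00119), a call lost in replicate 4 alone (-0.16, adjusted p = 0.0657). COL4A6 differed by -0.07 in CTCF-A KO (adjusted p = 0.407), and this sign turned under quantile normalization and median centring, both 0.02, while with the trend removed it was called lower (-0.19, adjusted p = 0.0269). Once the trend was removed the CTCF-A KO differences of COL4A1 and COL4A2 were 0.06 (adjusted p = 0.134) and 0.11 (adjusted p = 0.000225). COL4A1 and COL4A2 overlap at their starts on opposite strands in GENCODE release 29, and as the strand setting of the counting is not given in the sources used here, their reads there cannot be told apart.

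The type VI chains COL6A1 and COL6A2, which assemble into beaded filaments around cells, showed the opposite direction in the knockouts. COL6A1 had 14.33, 14.09, 14.14 and 13.99 in CTCF-A KO and 12.70, 12.70, 12.71 and 12.72 in CTCF-B KO, against 13.21, 13.20, 12.97 and 13.19 in wild type. COL6A2 had 13.86, 13.59, 13.70 and 13.49 in CTCF-A KO and 12.31, 12.29, 12.28 and 12.29 in CTCF-B KO, against 12.60, 12.58, 12.38 and 12.61 in wild type. For both genes all CTCF-A KO libraries lay above and all CTCF-B KO libraries below every wild type library. The fold in CTCF-A KO was 1.99 for COL6A1 (1.00 ± 0.07, adjusted p = 1.3e-07) and 2.17 for COL6A2 (1.12 ± 0.07, adjusted p = 6.9e-08). Both held with the trend removed, at 0.80 and 0.90, and in replicate 4 alone, at 0.85 and 0.94. In CTCF-B KO, COL6A1 fell by 0.43 (adjusted p = 0.000296) and COL6A2 by 0.25 (adjusted p = 0.0133), where centring each library on its median gave COL6A2 -0.24 with an adjusted p of 0.0504.

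COL18A1, COL6A1 and COL6A2 lie in a row on the plus strand of chromosome 21, COL18A1 at 45405137 to 45513720, COL6A1 at 45981737 to 46005050 and COL6A2 at 46098097 to 46132849 (GRCh38), with gaps of 468.0 and 93.0 kb. Of the 14 other genes tested within 500 kb of this stretch, CTCF-A KO had 2 higher and 7 lower (median -0.15), and 0 were higher and 10 lower with the trend removed. In CTCF-B KO 1 of the 14 was higher and 6 were lower, with a median of -0.07. Over all genes tested, 31.8% were called higher and 31.1% lower in CTCF-A KO, and 18.9% and 20.6% in CTCF-B KO. The shares over all genes with the trend removed are not given here.

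The fibril-associated chains, which sit on the surface of larger fibrils, held the steepest fall. COL14A1 (chr8:120059780-120372036, plus strand) had 9.23, 9.06, 9.15 and 9.29 in CTCF-B KO, against 11.69, 11.78, 11.63 and 11.68 in wild type. Its fold of 0.175 (-2.52 ± 0.09, adjusted p = 3.33e-10) was the lowest of the 34 genes in any of the 3 comparisons. In CTCF-A KO, COL14A1 was at 11.91, 11.84, 12.12 and 12.31, above every wild type library, with a difference of 0.35 ± 0.09 (adjusted p = 0.00413), 0.51 with the trend removed and 0.62 in replicate 4 alone.

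The type IX chains COL9A2 and COL9A3, best known from cartilage, also fell in CTCF-B KO. COL9A2 (chr1:40300487-40317813, minus strand) had 6.52, 6.46, 6.45 and 6.49 in CTCF-B KO, against 7.24, 7.23, 7.01 and 7.22 in wild type, a difference of -0.69 ± 0.08 (adjusted p = 2.92e-05). COL9A3 (chr20:62816244-62841159, plus strand) had 6.47, 6.22, 6.37 and 6.67 in CTCF-B KO, against 7.67, 7.63, 7.22 and 7.60 in wild type, a difference of -1.10 ± 0.13 (adjusted p = 2.75e-05). The groups did not overlap for either gene. In CTCF-A KO, COL9A2 (7.22, 7.03, 7.16 and 6.85) and COL9A3 (7.77, 7.68, 7.59 and 7.26) overlapped wild type, with differences of -0.11 (adjusted p = 0.269) and 0.05 (adjusted p = 0.776). After removal of the trend COL9A2 was called lower there (-0.33, adjusted p = 9.77e-05), and COL9A3 was at -0.18 without a call (adjusted p = 0.127). COL9A3 overlaps TCFL5 on the other strand, so reads of that pair cannot be told apart.

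COL12A1 was the weakest call among the chains in CTCF-B KO. Its difference was -0.30 ± 0.11 with an adjusted p of 0.0453 (-0.19 with the trend removed), and leaving out any of the CTCF-B KO or wild type libraries ended the call, with adjusted p from 0.0596 to 0.113. The CTCF-A KO libraries had 11.24, 11.47, 11.55 and 11.96, against 11.76, 11.73, 11.86 and 11.67 in wild type, so replicates 1 to 3 lay below and replicate 4 above every wild type library. The difference of -0.20 was not called (adjusted p = 0.133); it was -0.34 without CTCF-A KO replicate 4 (adjusted p = 0.000297) and 0.21 with that replicate alone (adjusted p = 0.0114).

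Of the remaining chains, COL18A1, the basement membrane collagen from which endostatin is cut, split the knockouts. It had 12.23, 11.92, 12.15 and 11.92 in CTCF-A KO and 10.08, 10.06, 10.16 and 10.14 in CTCF-B KO, against 11.64, 11.69, 11.50 and 11.59 in wild type. The CTCF-A KO libraries all lay above and the CTCF-B KO libraries all below wild type. Its fold was 1.36 in CTCF-A KO (0.45 ± 0.07, adjusted p = 0.000133) and 0.355 in CTCF-B KO (-1.49 ± 0.07, adjusted p = 4.62e-09). With the trend removed the CTCF-A KO difference was 0.22. COL17A1, a transmembrane collagen best known from epithelial hemidesmosomes, was lower in both, at -0.53 in CTCF-A KO (adjusted p = 0.000139) and -0.33 in CTCF-B KO (adjusted p = 0.00614). COL18A1 overlaps SLC19A1 on the other strand.

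**Figure D2:**
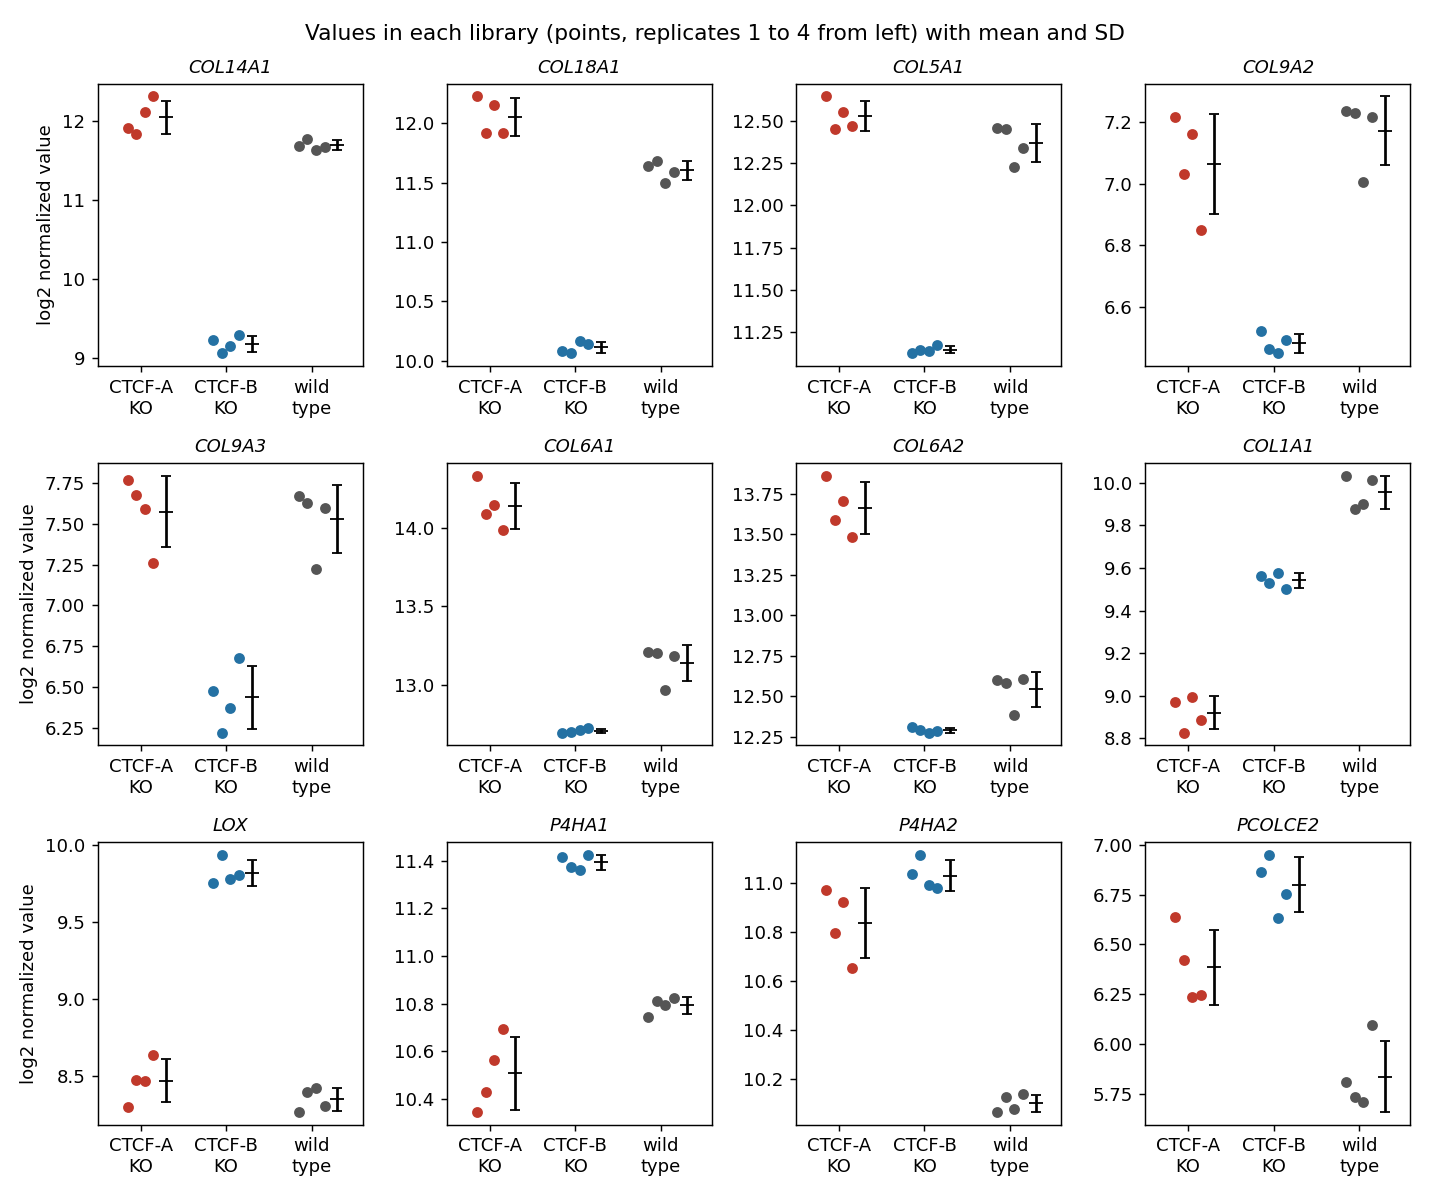
Normalized log2 value of the 12 genes that passed 1.5-fold against wild type, with 1 point per library (replicates 1 to 4 from left) and the mean and SD beside each group. COL14A1, COL18A1, COL5A1, COL9A2 and COL9A3 are lowest in CTCF-B KO, COL6A1 and COL6A2 are highest in CTCF-A KO, COL1A1 is lowest in CTCF-A KO, and LOX and P4HA1 are highest in CTCF-B KO. The vertical axes do not start at 0.

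The prolyl 4-hydroxylases, whose hydroxyproline keeps the triple helix stable at body temperature, changed together in CTCF-B KO and apart in CTCF-A KO. P4HA1 (chr10:73007217-73096974, minus strand) had 10.35, 10.43, 10.56 and 10.69 in CTCF-A KO and 11.42, 11.37, 11.36 and 11.42 in CTCF-B KO, against 10.74, 10.81, 10.80 and 10.82 in wild type. It rose in CTCF-B KO at a fold of 1.52 (0.60 ± 0.06, adjusted p = 8.29e-06). In CTCF-A KO it was lower (-0.29, adjusted p = 0.00173), a call lost with the trend removed (-0.09, adjusted p = 0.0587) and in replicate 4 alone (-0.10, adjusted p = 0.0912).

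The gene of the other catalytic subunit, P4HA2, rose in both knockouts. P4HA2 (chr5:132191838-132295315, minus strand) had 10.97, 10.80, 10.93 and 10.65 in CTCF-A KO and 11.04, 11.12, 10.99 and 10.98 in CTCF-B KO, against 10.07, 10.12, 10.07 and 10.14 in wild type. No knockout library overlapped wild type. The fold was 1.67 in CTCF-A KO (0.74 ± 0.06, adjusted p = 9.04e-07) and 1.91 in CTCF-B KO (0.93 ± 0.06, adjusted p = 1.35e-07). The log2 difference for CTCF-A KO was 0.67 with the trend removed and 0.55 in replicate 4 alone. P4HA2 overlaps PDLIM4 and SLC22A4 on the other strand.

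The prolyl 3-hydroxylase P3H1 forms a complex with CRTAP that modifies single prolines of the helix, and P3H2 and P3H3 were grouped with them here. P3H1 and P3H3 rose in both knockouts, by 0.32 (adjusted p = 0.00026) and 0.30 (adjusted p = 0.000691) in CTCF-A KO and by 0.24 (adjusted p = 0.00308) and 0.23 (adjusted p = 0.00622) in CTCF-B KO. CRTAP rose in CTCF-A KO, by 0.46 (adjusted p = 3.28e-06), while its CTCF-B KO difference of 0.10 was not called (adjusted p = 0.109). P3H2 was not called in either comparison, at 0.09 (adjusted p = 0.169) in CTCF-A KO and -0.01 (adjusted p = 0.936) in CTCF-B KO. With the trend removed the CTCF-A KO differences of P3H1 and P3H3 were 0.12 and 0.075, against 0.49 for CRTAP. In replicate 4 alone P3H1 was at 0.15, P3H3 at 0.16 and CRTAP at 0.32. CRTAP has a GC content of 49.6%, where P3H1 has 57.5% and P3H3 65.2%.

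The lysyl hydroxylases make the hydroxylysines on which cross-links and sugars are later placed. PLOD1 rose by 0.48 (adjusted p = 3.06e-05) in CTCF-A KO and by 0.31 (adjusted p = 0.00145) in CTCF-B KO, and PLOD3 by 0.42 (adjusted p = 3.32e-05) and 0.29 (adjusted p = 0.000867). COLGALT1, which adds galactose to hydroxylysine, rose by 0.32 in CTCF-A KO (adjusted p = 0.000291) and differed by 0.15 in CTCF-B KO (adjusted p = 0.0513), a value that was called with the trend removed (0.17, adjusted p = 0.00029). The CTCF-A KO differences of PLOD1, PLOD3 and COLGALT1 were then 0.27, 0.20 and 0.14, still called. PLOD2, which acts on the telopeptides, was not called in either. Its CTCF-A KO libraries spread from 10.30 to 11.16, with replicate 4 the highest. The difference of -0.25 (adjusted p = 0.12) was 0.07 with the trend removed and 0.23 in replicate 4 alone (adjusted p = 0.0205), and -0.41 without replicate 4 (adjusted p = 0.000305), at a GC content of 37.6%, the lowest of the 34 genes. PLOD3 overlaps ZNHIT1 on the other strand.

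SERPINH1, which encodes the collagen chaperone HSP47, was lower in both knockouts. It fell in CTCF-A KO by 0.35 (adjusted p = 0.00132), and its difference was -0.54 with the trend removed and -0.58 in replicate 4 alone. In CTCF-B KO it fell by 0.25 (adjusted p = 0.0159), and the call ended without wild type replicate 2 (-0.23, adjusted p = 0.0508) and after median centring (-0.24, adjusted p = 0.0565). No library of either knockout overlapped wild type.

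Of the genes that act on the C-propeptide, the enhancer of BMP1 encoded by PCOLCE2, the lowest of all members in wild type, rose in both knockouts. PCOLCE2 (chr3:142815922-142889206, minus strand) had 6.64, 6.42, 6.24 and 6.25 in CTCF-A KO and 6.86, 6.95, 6.63 and 6.75 in CTCF-B KO, against 5.81, 5.73, 5.71 and 6.09 in wild type. All libraries of both knockouts lay above wild type, at folds of 1.46 in CTCF-A KO (0.55 ± 0.11, adjusted p = 0.00109) and 1.95 in CTCF-B KO (0.96 ± 0.11, adjusted p = 2.3e-05). In replicate 4 alone the CTCF-A KO difference was 0.41 (adjusted p = 0.0509). BMP1, the proteinase itself, rose by 0.52 in CTCF-A KO (adjusted p = 2.69e-05; 0.33 with the trend removed) and fell by 0.24 in CTCF-B KO (adjusted p = 0.0112). PCOLCE was not called, at 0.02 (adjusted p = 0.887) and -0.01 (adjusted p = 0.962), and its CTCF-A KO difference was -0.22 with the trend removed (adjusted p = 0.0101).

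LOX, the founding lysyl oxidase, rose more than any other member in CTCF-B KO. LOX (chr5:122063195-122078360, minus strand) had 8.30, 8.47, 8.47 and 8.64 in CTCF-A KO and 9.75, 9.94, 9.78 and 9.80 in CTCF-B KO, against 8.27, 8.40, 8.42 and 8.30 in wild type. The CTCF-B KO libraries stood more than 1 log2 unit above all others, at a fold of 2.77 (1.47 ± 0.07, adjusted p = 5.57e-09), and 1.47 with the trend removed. CTCF-A KO overlapped wild type, with a difference of 0.12 (adjusted p = 0.146). LOX, with a GC content of 39.6%, was called higher in CTCF-A KO with the trend removed (0.51, adjusted p = 2.06e-05), in replicate 4 alone (0.29, adjusted p = 0.0101) and without replicate 1 (0.18, adjusted p = 0.0283).

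None of the LOX-like genes was called higher in CTCF-B KO. There LOXL3 fell by 0.50 (adjusted p = 0.000309), while LOXL1 (-0.03, adjusted p = 0.756) and LOXL2 (0.03, adjusted p = 0.749) were not called. In CTCF-A KO the calls were all higher, LOXL1 at 0.19 (adjusted p = 0.0189), LOXL2 at 0.29 (adjusted p = 0.000958) and LOXL3 at 0.36 (adjusted p = 0.00198). In replicate 4 alone none of the 3 was called, at 0.05, 0.15 and 0.25 (adjusted p = 0.62, 0.0771 and 0.105). With the trend removed LOXL2 and LOXL3 were at 0.10 (adjusted p = 0.0116) and 0.18 (adjusted p = 0.0221). LOXL1 then turned to -0.03, and it lost its call without wild type replicate 3 (0.15, adjusted p = 0.0654). LOXL1 overlaps LOXL1-AS1, and LOXL3 overlaps DOK1 and HTRA2, on the other strand.

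**Figure D3:**
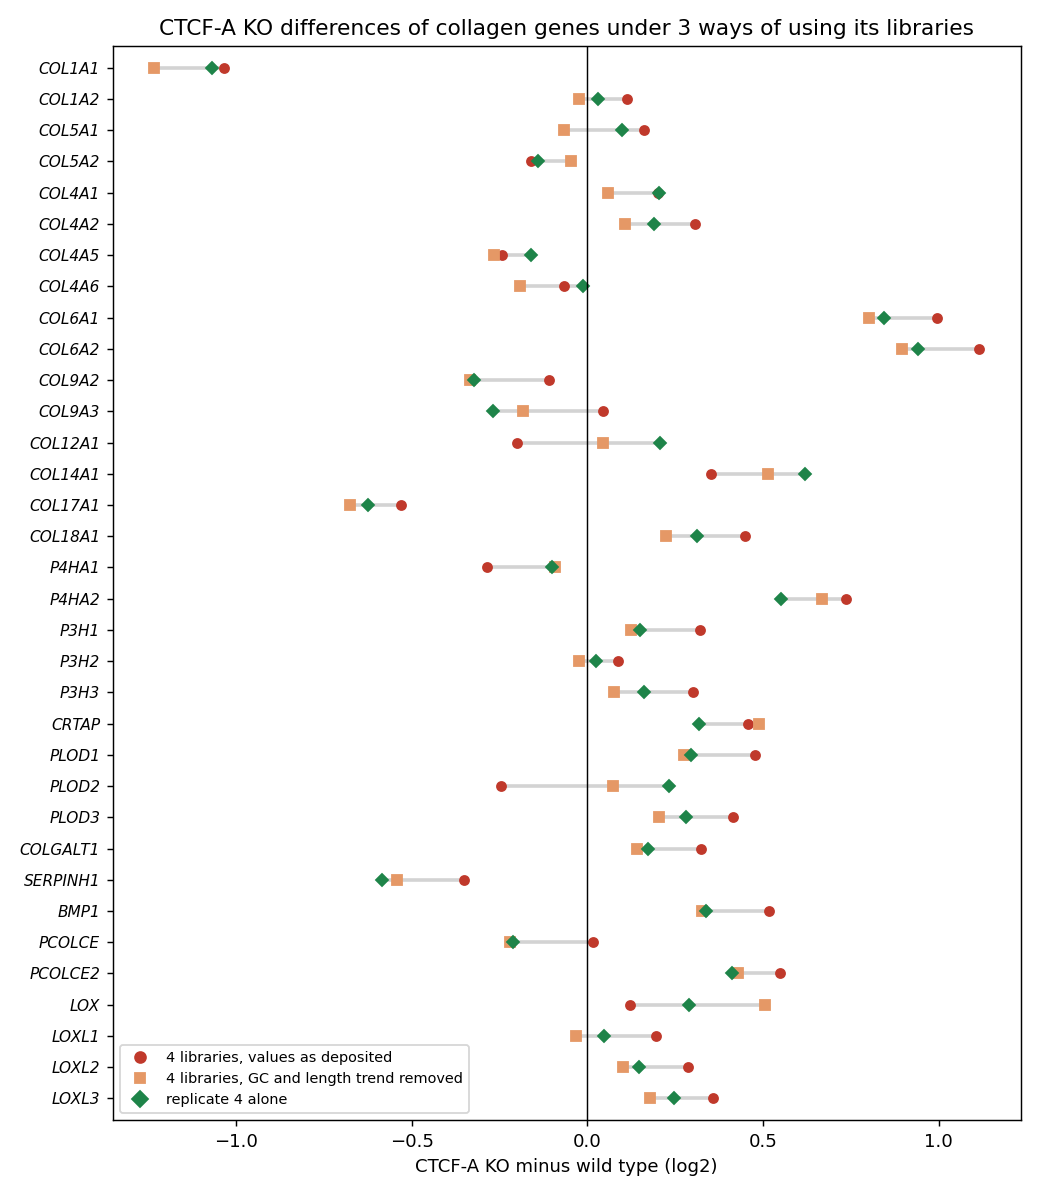
CTCF-A KO minus wild type for the 34 genes on the log2 scale, from all 4 libraries as deposited (red circles), after removal of the GC and length trend (orange squares) and with replicate 4 standing alone for CTCF-A KO (green diamonds). COL6A1, COL6A2 and P4HA2 stay right and COL1A1, COL17A1 and SERPINH1 left of 0 in all 3, while COL9A3, COL12A1, PLOD2 and PCOLCE are among those that change side.

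Chains that share a protein were compared as log2 ratios within each library, a description with no test. COL1A1 to COL1A2 averaged -6.15 ± 0.05 in CTCF-A KO, -5.23 ± 0.06 in CTCF-B KO and -5.00 ± 0.06 in wild type (SD, n = 4 each), or 0.0141, 0.0267 and 0.0312 as plain ratios of deposited values, not per length. COL5A1 to COL5A2 averaged -0.44 ± 0.08 in CTCF-A KO, -1.64 ± 0.06 in CTCF-B KO and -0.77 ± 0.05 in wild type. For both pairs the 3 groups were separate in the deposited values, so there the partner chains did not move in proportion. Ratios were not computed with the trend removed. Under that setting the CTCF-A KO differences from wild type were nearly the same for COL5A1 (-0.07) and COL5A2 (-0.05). For COL1A1 and COL1A2 they were -1.23 and -0.02. The CTCF-B KO differences of COL5A1 and COL5A2 were then -1.05 and -0.27. The ratio of deposited values varied less for COL4A1 to COL4A2, at -1.63 ± 0.11, -1.34 ± 0.02 and -1.52 ± 0.01 in CTCF-A KO, CTCF-B KO and wild type. In the same order of groups COL6A1 to COL6A2 was at 0.48 ± 0.03, 0.42 ± 0.03 and 0.60 ± 0.02. COL4A5 to COL4A6 (2.69 ± 0.06, 3.04 ± 0.12 and 2.86 ± 0.13) and COL9A2 to COL9A3 (-0.51 ± 0.11, 0.05 ± 0.18 and -0.36 ± 0.10) also differed by less than 0.6 between group means. P4HA1 and P4HA2, catalytic subunits of separate enzymes and not partners, averaged a ratio of -0.33 ± 0.28 in CTCF-A KO, 0.36 ± 0.08 in CTCF-B KO and 0.69 ± 0.02 in wild type. P3H1 to CRTAP averaged -2.76 ± 0.04, -2.47 ± 0.02 and -2.62 ± 0.01.

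**Figure D4:**
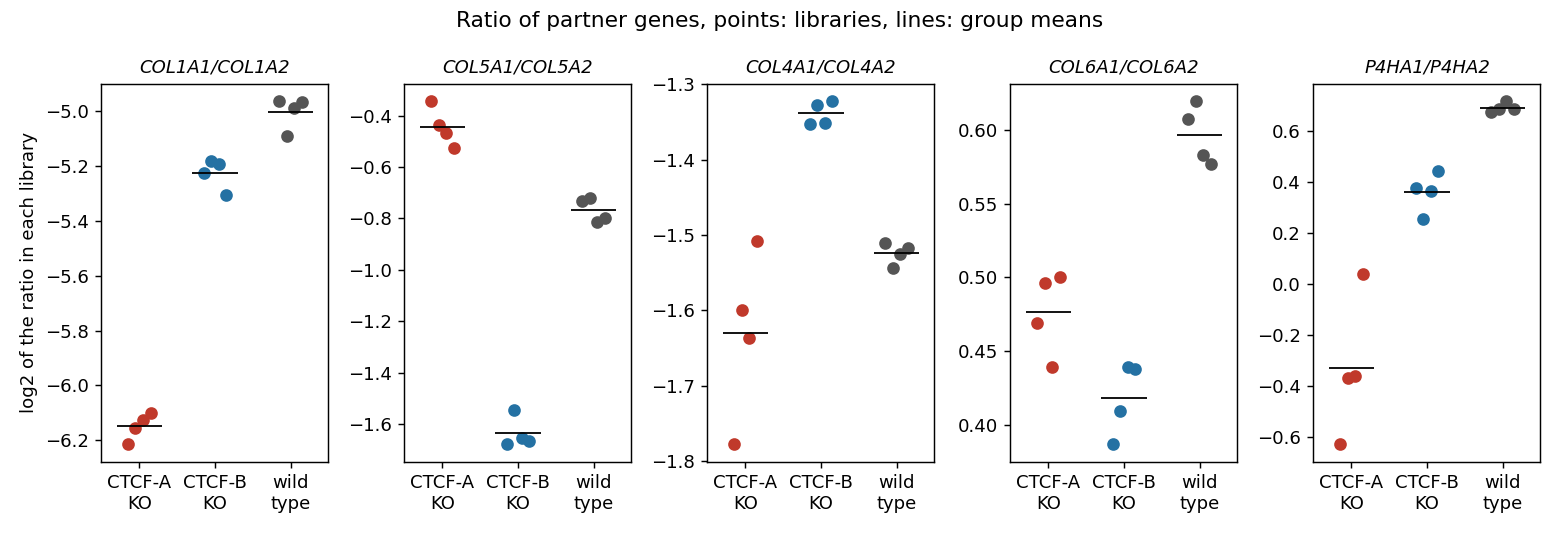
Log2 ratio of paired genes within each library, with 1 point per library and a line at the group mean. P4HA1 and P4HA2 are catalytic subunits of separate enzymes and not partner chains. Each panel has its own vertical scale. COL1A1/COL1A2 is lowest in CTCF-A KO (mean -6.15), COL5A1/COL5A2 is lowest in CTCF-B KO (mean -1.64), and P4HA1/P4HA2 is highest in wild type (mean 0.69).

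The knockouts were also compared directly. In CTCF-A KO against CTCF-B KO, 19 members were higher and 5 lower, where 66.0% of all genes were called, 33.4% higher and 32.6% lower. The chains made up most of the difference, with 12 of 16 higher, 1 lower and a median of 0.49, against 7 higher and 4 lower among the 18 enzymes, with a median of 0.08; the median over all genes was -0.01. With the trend removed, 16 members were higher and 11 lower. The chains were then at 13 higher and 2 lower (median 0.25) and the enzymes at 3 higher and 9 lower. The median of the enzymes turned to -0.06 with this setting, against -0.02 over all genes. Quantile normalization gave 14 higher and 7 lower. The shares of all genes called under these settings are not given here, so these counts have no background beside them.

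COL14A1 differed most, at 2.87 ± 0.09 (adjusted p = 8.63e-11), a fold of 7.3. COL18A1 followed at 1.94, COL6A1 at 1.43, COL5A1 at 1.38, COL6A2 at 1.37, COL9A3 at 1.14, COL4A2 at 0.64 and COL9A2 at 0.58, with adjusted p from 2.76e-10 to 4.89e-05. LOXL3 (0.86, adjusted p = 1.23e-06) and BMP1 (0.76, adjusted p = 6.19e-07) were the enzymes higher by at least 0.58. Lower in CTCF-A KO than in CTCF-B KO were LOX (-1.35, adjusted p = 5.93e-09), P4HA1 (-0.89, adjusted p = 9.51e-08), COL1A1 (-0.62, adjusted p = 4.87e-07), PCOLCE2 (-0.41, adjusted p = 0.00588) and P4HA2 (-0.20, adjusted p = 0.0156), the last not called without CTCF-B KO replicate 2 (-0.17, adjusted p = 0.0513) or after median centring (-0.13, adjusted p = 0.173). Where 8.51% of all genes were called higher by at least 0.58 and 9.18% lower, 10 and 3 members were. With the trend removed COL4A2 was at 0.27, COL9A2 at 0.35 and BMP1 at 0.49, all under 0.58, and COL1A1 was at -0.98. In replicate 4 alone COL4A2 was at 0.52 and COL9A2 at 0.37, and P4HA2 at -0.38. COL1A2 was called higher (0.30, adjusted p = 0.000113), but under quantile normalization it was called lower (-0.14, adjusted p = 0.00731).

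Around the members, genes of collagen folding and secretion moved in both directions. Of 17 on that list 15 were measured. Of these, 5 were higher and 5 lower in CTCF-A KO (median 0.07), and 8 were higher and 2 lower in CTCF-B KO (median 0.17). For this list and all those that follow, the shares over all genes tested were 31.8% higher and 31.1% lower in CTCF-A KO. In CTCF-B KO they were 18.9% higher and 20.6% lower. Such shares are not given here for the other settings. FKBP10, a collagen chaperone of the endoplasmic reticulum, rose in both knockouts, by 0.57 (CTCF-A KO) and 0.48 (CTCF-B KO), as did P3H4, a partner of lysyl hydroxylase 1, by 0.69 and 0.52. P4HB, the subunit that both prolyl 4-hydroxylases share, rose in CTCF-A KO (0.44, adjusted p = 1.39e-05) and was at 0.06 in CTCF-B KO (adjusted p = 0.361). The coat protein gene SEC23A fell in CTCF-A KO (-0.50), a value of -0.13 with the trend removed, and SEC24D rose (0.51) and COLGALT2 fell (-0.66) in CTCF-B KO. After removal of the trend 7 of the 15 were higher and 2 lower in CTCF-A KO, where FKBP10 was at 0.35, P3H4 at 0.47 and P4HB at 0.23. Of 6 procollagen-cleaving proteinases only FURIN was measured, higher in CTCF-A KO (0.61, adjusted p = 3.54e-07) and lower in CTCF-B KO (-0.28, adjusted p = 0.000437).

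Matrix proteins that bind collagen fibrils split the knockouts in the way of COL6A1 and COL18A1. Of 12 listed, 4 were measured, and all 4 were higher in CTCF-A KO (median 0.54) and lower in CTCF-B KO (median -0.24). Fibronectin, FN1, was at 1.10 in CTCF-A KO (adjusted p = 2.35e-09) and -0.28 in CTCF-B KO (adjusted p = 0.000374). TGFBI, a collagen-binding matrix protein, was at 0.81 and -0.17, THBS2 at 0.26 and -0.38, and SPARC at 0.26 (0.12 in CTCF-A KO replicate 4 alone) and -0.20. The counts of 4 higher and 4 lower were also found with the trend removed.

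Of 16 genes of collagen breakdown and its inhibitors, 9 were measured, with 6 higher and 2 lower in CTCF-A KO (median 0.49) and 3 higher and 4 lower in CTCF-B KO (median -0.18). MMP14, the membrane-bound collagenase, rose in both, by 1.27 (adjusted p = 1.65e-07) and 0.60 (adjusted p = 0.000183), as did the inhibitor TIMP4, by 1.38 and 0.57. TIMP2 was higher in CTCF-A KO (0.70) and lower in CTCF-B KO (-0.40). MMP15 was at -0.80 and -1.14, and RECK, a membrane inhibitor of these proteinases, at -0.62 and -0.23, both lower in both knockouts, with RECK at -0.41 in CTCF-A KO once the trend was removed. Of 9 collagen receptors, 5 were measured: 3 were higher in CTCF-A KO (DDR1 0.33, DDR2 0.57 and ADGRG1 0.63; median 0.33), and 2 were lower in CTCF-B KO (DDR1 -0.40 and ADGRG1 -0.31; median -0.15); with the trend removed the CTCF-B KO counts were 2 higher and 3 lower. In CTCF-A KO 4 were then higher: DDR1 was at 0.14 (adjusted p = 0.0112), DDR2 at 0.99, and the integrin gene ITGA2, at -0.03 before (adjusted p = 0.875), was called at 0.41 (adjusted p = 2.87e-05). DDR1 was not called in replicate 4 alone (0.20, adjusted p = 0.0538).

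Of 14 symbols listed for the TGF-beta axis, a main inducer of collagen genes in many cells, 12 were measured. CTGF and CCN2 on this list name the same gene. The list also holds inhibitors of the pathway, SKI among them, so its counts give no direction of signalling. In CTCF-A KO 2 were higher and 7 lower (median -0.22), with SMAD3 at 0.52, CCN2 at -0.95, TGFBR2 at -0.60 and SKI at -0.36. In CTCF-B KO 2 were lower, SMAD3 at -0.23 and CCN2 at -0.18 (median -0.03). With the trend removed CTCF-A KO had 4 higher and 7 lower, and the number lower in CTCF-B KO was 4. In replicate 4 alone CTCF-A KO had 4 lower. On the hypoxia axis 8 of 9 genes were measured, with 5 higher in CTCF-A KO (median 0.13) and 3 higher and 1 lower in CTCF-B KO (median -0.02). ADM rose by 1.42 and 0.81, and VEGFA, the classic hypoxia target, by 0.59 (adjusted p = 2.2e-06) and 0.76 (adjusted p = 3.1e-07). EGLN3 was called in CTCF-A KO (0.45; 0.24 in replicate 4 alone, adjusted p = 0.0258), EPAS1 in both (0.13 and 0.35), and ARNT was lower in CTCF-B KO (-0.23). The CTCF-A KO call of EPAS1 was lost with the trend removed (0.03, adjusted p = 0.414), where 6 of the 8 genes were higher in CTCF-A KO, and 3 were higher and 2 lower in CTCF-B KO.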

How the data were processed

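RNA-seq libraries of U251-APP cells were sequenced as read pairs, per the labels. The deposited table holds normalized log2 expression values made by the authors; the submitters' processing notes name Trimmomatic 0.33, featureCounts, DESeq2 and the build GRCh38.p7, and the transformation, aligner, annotation, strand setting and gene filter are not given in the sources used here. The values, from 1.34 to 17.97, were used as deposited, without a pseudocount. The minimum of 10 (linear) in at least 4 of 12 libraries removed 50 of 11178 genes. One limma model (version 3.58.1, R 4.3.3) with 3 group means and trended empirical Bayes variance took in the 12 libraries. Tests were two-sided, with p-values adjusted by Benjamini-Hochberg over the 11128 genes and calls made at 0.05. Log2 fold changes are differences of group means with standard errors from that fit. The code was tested on simulated data.

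Positions, longest transcripts, GC content and overlapping genes came from GENCODE release 29 (GRCh38), in which 11151 identifiers were found. To remove the trend with GC content and length, natural splines of both (5 and 4 degrees of freedom, with their product) were fitted to each library's values minus the wild type mean and subtracted; both properties were known for 99.7% of genes.

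The members and the 12 gene lists were chosen with earlier results of these data known. Every member could be named. Values of each library are given for members called against wild type with a difference of at least 0.58, and for COL1A2 and COL12A1, chosen after their values were seen. Of each pathway list, up to 4 genes with the smallest adjusted p per comparison with wild type were named; P4HB in CTCF-B KO, ITGA2, FABP7, GFAP and the values of such genes in the other comparison were added. The genes of the TGF-beta list called higher in CTCF-B KO are not reported here. Both comparisons with wild type share the same 4 wild type libraries. Alternatives were no filter, a filter at 50, quantile normalization, median centring, the trend removed, a replicate block with and without that, only the 8 libraries compared, no variance trend, CTCF-A KO replicate 4 alone, and each library left out. The split into chains and enzymes was added after the data were seen.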

Additional observations from a re-analysis of the deposited data

Results flagged for a closer look

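In 5 of 102 combinations of a collagen gene and a group, 1 of the 4 libraries stood apart, with a gap to its neighbour of 0.836 to 0.915 of the group's range, above Dixon's critical value; chance alone flags about 1 group in 20. Wild type replicate 3 was the lowest library in 4 of them. It had 12.97 for COL6A1, where the next library had 13.19, and 12.38 for COL6A2, where the next had 12.58. It also had 7.01 for COL9A2, with the next library at 7.22, and 7.22 for COL9A3, with the next at 7.60. In CTCF-B KO, replicate 2 was the highest for P3H1, at 10.94, with the next library at 10.91. Wild type replicate 3 had the lowest difference between GC-rich and GC-poor genes of all 12 libraries, -0.152; its part in these 4 values was not tested.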

How the results depend on the processing

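Over 102 pairs of a collagen gene and a comparison, 7 were never called. These are left out of the signs below, except that COL9A3 in CTCF-A KO turned to -0.18 against wild type with the trend removed and to -0.27 with replicate 4 alone. The other pairs gave 1681 values under the alternatives, of which 1519 kept direction and call, 59 lost and 50 gained a call, and 53 turned sign, 12 of them where the main value was called. Of the 76 called pairs, 55 were called the same way under every alternative. Of 194 counts of members, 2 moved by more than 1.5 times: the number lower in CTCF-A KO than in CTCF-B KO was 11 with the GC and length trend removed, with and without the replicate block, against 5. The cause was not tested.

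In CTCF-A KO against wild type the sign turned with the trend removed, with or without the block, for COL12A1 (0.045), COL1A2 (-0.023), COL5A1 (-0.065), LOXL1 (-0.033), P3H2 (-0.025), PCOLCE (-0.22) and PLOD2 (0.072). It turned with replicate 4 standing alone for CTCF-A KO for COL12A1 (0.21), PCOLCE (-0.21) and PLOD2 (0.23), under quantile normalization for COL1A2 (-0.14) and COL4A6 (0.015), and after median centring for COL4A6 (0.016). For PCOLCE it also turned with some single libraries left out, over which its value ran from -0.034 to 0.091.

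In CTCF-A KO against CTCF-B KO it turned with the trend removed for COLGALT1 (-0.028), LOXL1 (-0.012), P3H1 (-0.10), P3H2 (-0.0098), P3H3 (-0.16), PCOLCE (-0.18), PLOD1 (-0.020), PLOD2 (0.058) and PLOD3 (-0.085), with replicate 4 alone for P3H1 (-0.092), P3H3 (-0.071), PCOLCE (-0.20), PLOD1 (-0.013), PLOD2 (0.19) and PLOD3 (-0.014), and under quantile normalization for COL1A2 (-0.14) and PLOD3 (-0.053). With single libraries left out it turned for COL12A1 (-0.032 to 0.21) and PCOLCE (-0.028 to 0.098). In CTCF-B KO against wild type no sign turned among the pairs that were ever called.

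The replicate numbers did not pair the libraries: deviations of same-numbered libraries correlated at -0.32 to 0.43. A fit that took the replicate number as a block gave similar counts: the members higher in CTCF-B KO were 9 and those lower in CTCF-A KO than in CTCF-B KO 6; not every library correlated best with its own number. Under the scalings tried, the median difference over all genes lay at most 0.087 from 0. Depth is unknown, so small values of low genes such as PCOLCE2 have no counting limit.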
